A study of Homo sapiens with 18 samples.

Results

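ID1, ID2, ID3 and ID4, the SMAD genes SMAD1, SMAD5, SMAD6, SMAD7 and SMAD9, and BAMBI were followed in osteosarcoma (OS) Saos-2 cells grown by different culture methods. These 10 genes were found by their symbols in a table of 50119 genes. They were chosen by their fold changes between the cultures and fresh tumor tissue in these same libraries, so their values set against fresh tumor are a description with no test. Differences between one culture and another were tested.

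All 6 groups, each of 3 libraries, came from Saos-2, an established line of human OS cells that the labels spell Soas-2 and give as wild type (WT). D-2 was 2D cells, D-3 was 3D cells inside Matrigel (a gel of basement membrane proteins) and DP-3 was tissue printed from cells in an ink of methacrylated gelatin and alginate, all after 14 days of culture in vitro in DMEM-F12 with 10% fetal bovine serum. DP-3 day 1 was the printed tissue after 1 day. The fresh isolated tumor tissue (FIT) was a xenograft that Saos-2 cells, injected in Matrigel, formed in vivo within 2 weeks under the skin of female BALB/c nude mice, which lack T cells and were 4 weeks old. Isolated tissue (IT) was pieces of such tumors kept on Matrigel in the same medium for 14 days. Each tumor gave material for both IT and FIT, so libraries of these groups can come from the same tumors, and the labels do not say which. IT and FIT can both contain mouse cells, and whether mouse reads were removed is not given in the sources used here. The labels do not link a library to a mouse or a dish, so p-values measure only the spread between these libraries, which may be technical.

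Bone morphogenetic proteins (BMPs) bind pairs of cell surface receptors, which phosphorylate SMAD1, SMAD5 and SMAD9. These receptor-regulated SMADs join SMAD4 and enter the nucleus, where the ID genes and the inhibitory SMADs, SMAD6 and SMAD7, are among their best known targets. ID proteins hold a helix-loop-helix domain without a DNA-binding region and keep their partner transcription factors from binding DNA. BAMBI is a membrane protein like a receptor but without a kinase domain, and it dampens signals of the TGF-beta family. In bone this pathway is known for driving osteoblast formation. RNA levels do not show whether the SMAD proteins were phosphorylated.

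The 250 bases before the gene start are printed for ID1 and ID3, the most abundant of the 10 genes, and for SMAD6, whose window was the only one of a member to hold the longest motif searched. They are RefSeq sequences on GRCh38.p14, in the direction of the gene. Capitals mark a match to a SMAD-binding motif, searched on both strands: GTCTAGAC, CAGAC (its other strand reads GTCTG) and GGCGCC.
ID1, chr20:31605039-31605288, plus strand: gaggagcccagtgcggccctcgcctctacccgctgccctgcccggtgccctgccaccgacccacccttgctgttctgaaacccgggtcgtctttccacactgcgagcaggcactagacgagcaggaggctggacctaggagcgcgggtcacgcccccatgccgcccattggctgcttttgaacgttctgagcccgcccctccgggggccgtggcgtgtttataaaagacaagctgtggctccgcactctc
ID3, chr1:23559502-23559751, minus strand: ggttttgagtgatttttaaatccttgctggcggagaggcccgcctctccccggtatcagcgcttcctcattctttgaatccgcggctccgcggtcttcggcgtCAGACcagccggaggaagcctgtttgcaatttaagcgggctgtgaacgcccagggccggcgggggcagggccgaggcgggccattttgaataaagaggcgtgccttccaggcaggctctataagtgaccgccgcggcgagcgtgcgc
SMAD6, chr15:66701986-66702235, plus strand: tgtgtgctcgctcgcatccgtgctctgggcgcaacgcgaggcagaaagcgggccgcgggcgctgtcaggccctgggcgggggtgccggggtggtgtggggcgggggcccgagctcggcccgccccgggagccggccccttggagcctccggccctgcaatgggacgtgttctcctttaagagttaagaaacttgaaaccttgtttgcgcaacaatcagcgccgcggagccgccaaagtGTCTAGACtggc
SMAD6 held GTCTAGAC with its first base 12 bases before the start, and ID3 held CAGAC with its first base 147 bases before it. Over 35116 promoter windows of this length, 0.182% held GTCTAGAC, 38% held CAGAC and 16.4% held GGCGCC. All 10 genes were matched, with 16 windows among them since SMAD1 has 5 and SMAD7 has 3. CAGAC was also found for BAMBI, ID4, SMAD1 and SMAD7, and GGCGCC for BAMBI and SMAD1. The ID1 window held none of the 3 motifs. A match is a run of letters and not a measured binding site.

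The libraries held 50327345 to 79082786 estimated counts, except FIT replicate 3 with 23721666. IT replicate 3 stood apart from its group: over genes of a mean FPKM of at least 1, its correlation with the mean of the other IT libraries was 0.910, below that with the D-3 mean (0.932). Calls in IT and the main fold changes of IT over FIT are given with and without IT replicate 3, and those of ID2 with FIT with and without FIT replicate 3. Markers of the labelled cell went in part against the label. RUNX2, a transcription factor of the osteoblast lineage, had group means of 0.76 to 1.54 FPKM (fragments per kilobase scaled to the depth of the library, a level per length), but ALPL, SP7 and IBSP, which define osteoblasts, had group means of at most 0.0881, 0.0331 and 0.0399 FPKM, while Saos-2 is known for high alkaline phosphatase, the product of ALPL. Of the 10 muscle markers the summed level was 0.683 to 5.49 FPKM in FIT and at most 0.579 in any other library. The 10 endothelial markers summed to 34.6 to 47.7 in FIT and 25.3 to 50.4 in the cultures, mostly TIE1, while KDR, VWF and CLDN5 had means of at most 0.12. Yet PECAM1 had means of 3.59 in FIT and 4.02 in IT against 0.888 to 1.5 in the other groups. CDH5 had 0.656 and 0.844 against at most 0.105, and TEK had 0.37 and 0.31 against at most 0.101. EMCN and ERG went the other way. EMCN had 0.0758 in FIT and 0.0513 in IT against 0.0917 to 0.351, and ERG had 0 and 0.00413 against 0.03 to 0.0512. ESAM had 2.4 in FIT and 1.09 in IT against 0.701 to 1.86. The 10 fibroblast markers summed to 62.6 to 92.25 in FIT and 61.7 to 134.4 in the cultures, with THY1 highest by mean in each group. The 10 leukocyte markers summed to 19.9 to 56.4 in FIT and 44.2 to 117.8 in the cultures, mostly CD68, with means of at most 0.0682 for PTPRC, TYROBP and AIF1. The part of host cells in any difference was not tested, and in such bulk samples fewer cells of a type cannot be told apart from less RNA per cell.

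The ID genes were the most abundant group, and ID1 and ID3 carried nearly all of it. ID1 lies at chr20:31605283-31606515 on the plus strand and ID3 at chr1:23557926-23559501 on the minus strand, by the deposited positions, which match GRCh38. ID1 had 123.6, 130.2 and 113.5 FPKM in D-2, 116.7, 120.5 and 117.2 in DP-3 day 1, 133.0, 125.9 and 93.7 in DP-3, 77.0, 150.1 and 229.5 in D-3, 53.6, 60.3 and 104.0 in IT, and 19.8, 29.6 and 22.1 in FIT. Every culture library lay above every FIT library, and the D-3 libraries spread widest. ID3 had 232.5, 226.1 and 230.5 FPKM in D-2, 242.3, 248.3 and 249.7 in DP-3 day 1, 333.5, 247.7 and 234.5 in DP-3, 121.0, 196.8 and 215.0 in D-3, 60.3, 121.1 and 205.0 in IT, and 17.5, 25.3 and 21.5 in FIT. FIT was again lowest with no overlap, IT replicate 1 came next, and in D-2 and DP-3 day 1 the 3 libraries were nearly equal.

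Within one library, where scaling cancels, ID3 stood at 1.74 to 2.03 times the FPKM of ID1 in D-2, 1.97 to 2.51 times in DP-3 and 2.06 to 2.13 times in DP-3 day 1. In FIT the ratio was 0.855 to 0.973, so the 2 genes stood close together. D-3 spanned 0.937 to 1.57, with replicate 3 inside the FIT range, and IT had 1.12, 2.01 and 1.97. ID1 and ID3 together made up 86.5 to 99.3% of the summed FPKM of the ID genes, which was 38.3 to 57.6 in FIT.

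ID2, which also opposes helix-loop-helix factors, stood far lower and did not follow its relatives. It had 3.57, 3.22 and 3.37 FPKM in D-2, 7.11, 9.06 and 6.99 in DP-3 day 1, 3.89, 2.93 and 3.48 in DP-3, 2.43, 3.60 and 3.01 in D-3, 0.872, 2.26 and 14.2 in IT, and 0.959, 2.65 and 6.82 in FIT. The IT libraries alone spanned the whole range, and DP-3 day 1 lay above the other 3 cell cultures. ID4 was listed at 0 in 15 of 18 libraries and reached 0.0322 FPKM at most, so it was not tested. ID2 lies at chr2:8678845-8684453 and overlaps ID2-AS1 on the other strand, which had at most 0.121 FPKM. ID4 lies at chr6:19837370-19842197.

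**Figure D1:**
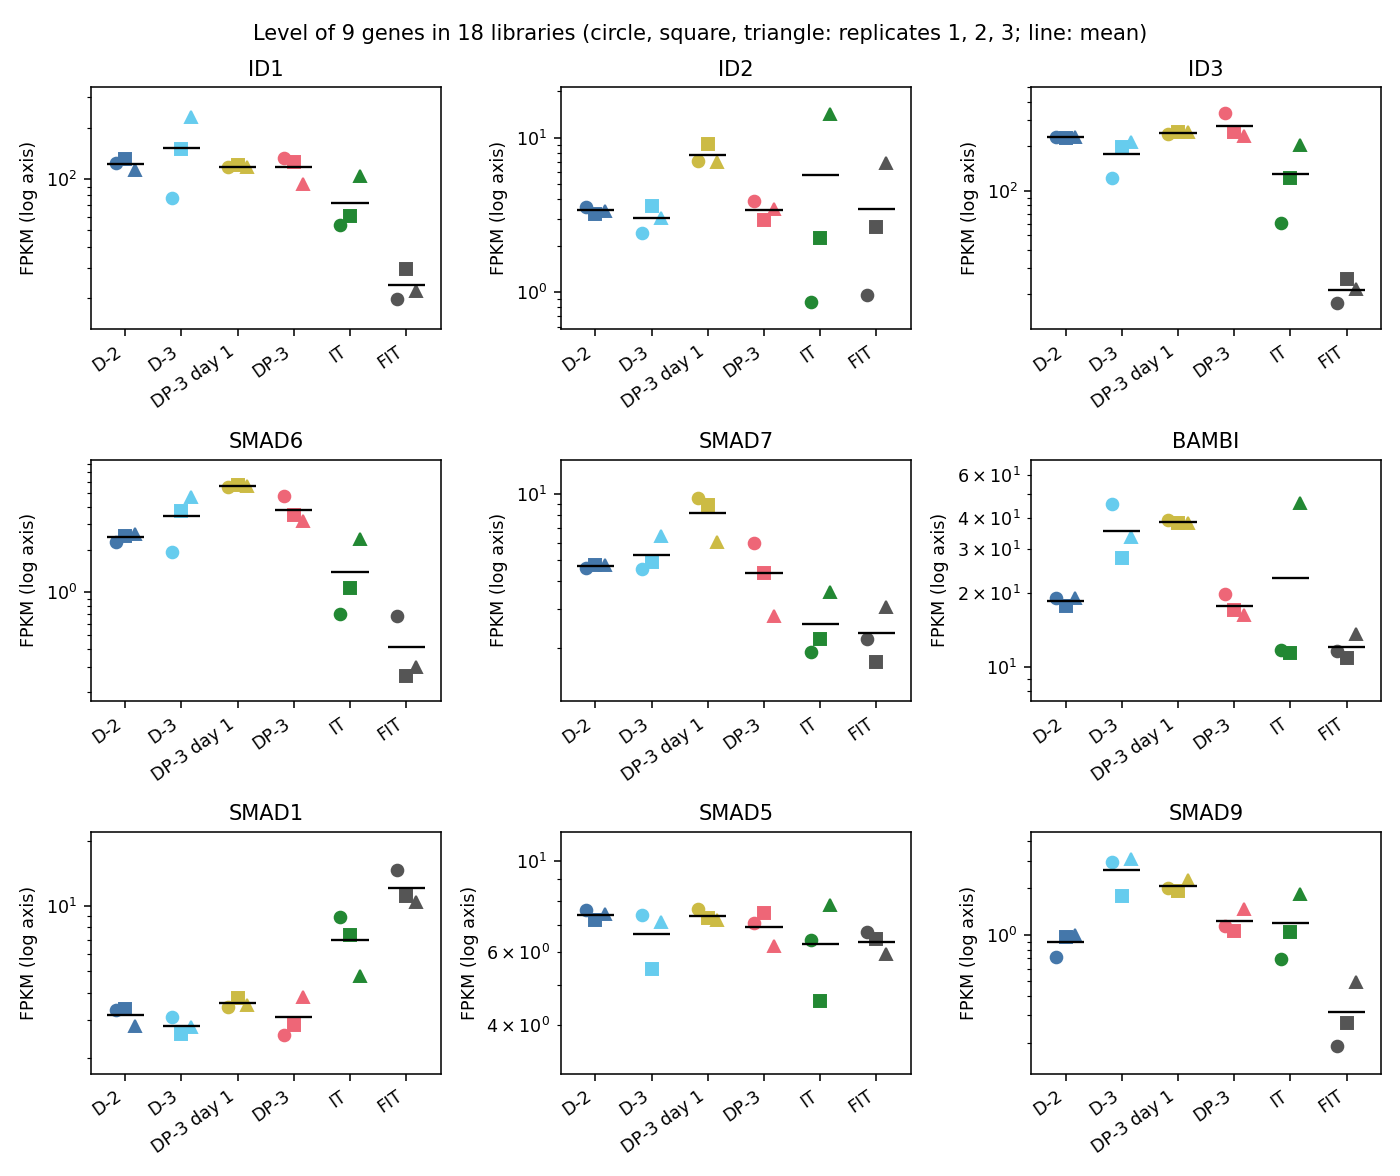
FPKM on a log axis for 9 of the 10 genes (ID4 is left out, being near 0), by group, with circle, square and triangle for replicates 1, 2 and 3 and a line at the group mean (n = 3). ID1, ID3, SMAD6 and SMAD9 are lowest in FIT with no overlap, SMAD1 is highest there, and SMAD5 is nearly level.

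SMAD6 and SMAD7 block the receptors and the receptor-regulated SMADs, and as targets of the pathway they form its feedback. SMAD6 (chr15:66702236-66782849) had 2.26, 2.48 and 2.55 FPKM in D-2, 5.47, 5.71 and 5.55 in DP-3 day 1, 4.72, 3.52 and 3.15 in DP-3, 1.91, 3.71 and 4.67 in D-3, 0.705, 1.08 and 2.37 in IT, and 0.678, 0.258 and 0.299 in FIT. DP-3 day 1 was the highest group without overlap, and IT replicate 1 was only just above FIT replicate 1. SMAD7 (chr18:48919853-48952052) had 4.61, 4.75 and 4.72 FPKM in D-2, 9.52, 8.87 and 6.004 in DP-3 day 1, 5.97, 4.35 and 2.77 in DP-3, 4.55, 4.90 and 6.41 in D-3, 1.91, 2.20 and 3.58 in IT, and 2.20, 1.71 and 3.06 in FIT. IT and FIT overlapped for this gene, and DP-3 replicate 3 also lay within the FIT range. In DP-3 replicate 3 genes of the mitochondrial genome made up 34.0% of the summed FPKM, against 17.7% and 18.5% in DP-3 replicates 1 and 2. The part of this in its SMAD7 level was not tested.

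BAMBI (chr10:28677510-28682932) had 19.0, 17.8 and 19.1 FPKM in D-2, 39.4, 38.3 and 38.4 in DP-3 day 1, 19.7, 17.1 and 16.3 in DP-3, 45.5, 27.6 and 33.6 in D-3, 11.7, 11.4 and 46.0 in IT, and 11.6, 10.95 and 13.6 in FIT. D-2 and DP-3 formed a low pair of cultures, DP-3 day 1 and D-3 a high pair. IT was split: replicates 1 and 2 sat within the FIT range and replicate 3 was the highest of all 18 libraries.

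The 3 receptor-regulated SMADs, which carry the signal to the nucleus, each showed another pattern. SMAD1 (chr4:145481194-145559176) had 3.31, 3.37 and 2.81 FPKM in D-2, 3.43, 3.79 and 3.50 in DP-3 day 1, 2.54, 2.84 and 3.83 in DP-3, 3.07, 2.58 and 2.78 in D-3, 8.87, 7.36 and 4.77 in IT, and 14.6, 11.1 and 10.5 in FIT. Thus FIT was above IT and IT above the 4 groups that began as cells, with no overlap at either step. SMAD9 (chr13:36844831-36920765) had 0.714, 0.967 and 0.993 FPKM in D-2, 2.01, 1.92 and 2.25 in DP-3 day 1, 1.14, 1.06 and 1.46 in DP-3, 2.96, 1.76 and 3.07 in D-3, 0.696, 1.04 and 1.84 in IT, and 0.189, 0.269 and 0.494 in FIT. It was lowest in FIT without overlap and highest in D-3 and DP-3 day 1, which overlapped. SMAD5 (chr5:136132845-136188747) ranged from 4.58 to 7.81 FPKM over all 18 libraries, both ends of it in IT. The overlapping genes SMAD1-AS2, SMAD5-AS1 and SMAD9-IT1 reached at most 0.0945, 0.191 and 0.516 FPKM, and how reads in shared stretches were counted is not given in the sources used here.

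As shares of their summed FPKM, the receptor-regulated SMADs changed places. SMAD1 made up 61.9 to 67.9% in FIT, 55.4 and 56.7% in IT replicates 1 and 2, 33.1% in IT replicate 3, and 21.5 to 33.3% in the other cultures. SMAD9 made up 0.88 to 2.93% in FIT and up to 23.7% in D-3. SMAD5 was the main one in every library that began as cells.

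**Figure D2:**
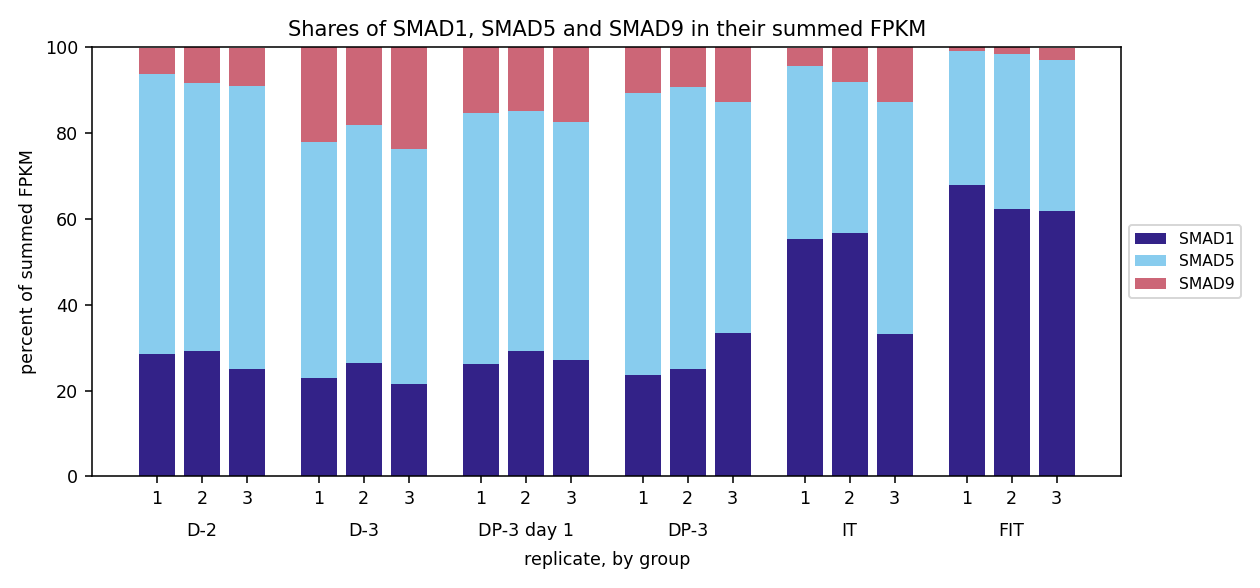
Shares of SMAD1, SMAD5 and SMAD9 in their summed FPKM, as percent from 0 to 100, with 1 bar for each of the 18 libraries by group. SMAD1 takes 61.9 to 67.9% in FIT, and IT replicate 3, at 33.1%, looks like the cultures that began as cells.

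Set against FIT, the cultures had ID3 at log2 fold changes of 2.59 (IT) to 3.78 (DP-3), ID1 at 1.60 (IT) to 2.60 (D-3), SMAD6 at 1.77 (IT) to 3.64 (DP-3 day 1) and SMAD9 at 1.66 (D-2) to 2.99 (D-3). These and the changes that follow come from edgeR fits of the estimated counts, 3 libraries against 3. SMAD1 had the opposite sign, from -2.16 ± 0.18 (SE) in D-3 to -0.78 ± 0.241 in IT. SMAD7 was at 1.03 to 1.71 in the 4 groups that began as cells and at 0.16 ± 0.327 in IT. BAMBI fell into the same pairs as before, at 0.78 in D-2 and 0.68 in DP-3, and at 1.58 in DP-3 day 1 and 1.51 in D-3. SMAD5 stayed between -0.02 and 0.37. ID2 depended on the shallow FIT replicate 3: with that library it was at 0.13 in D-2, at 0.11 in DP-3 and at -0.24 in D-3, and without it at 1.0, 1.01 and 0.63. Without IT replicate 3, IT against FIT stood at 2.07 for ID3, 1.24 for ID1, 1.12 for SMAD6, 1.46 for SMAD9, -0.58 for SMAD1 and -0.17 for SMAD7. BAMBI then went from 0.95 to -0.06 and ID2 from 0.75 to -1.13.

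Of the 9 genes, those with every culture library above every FIT library in FPKM numbered 7 in D-2 (18.9% of all genes tested), 6 in D-3 (20.5%), 5 in DP-3 (12.5%), 8 in DP-3 day 1 (22.6%) and 4 in IT (11.1%). SMAD1 alone lay below in each of the 5 comparisons, where 31%, 11.9%, 21.6%, 11.4% and 9.49% of all genes did. Since these contrasts were known when the genes were chosen, and since all 5 share the FIT libraries, nothing is read from the counts. ID1, ID3, SMAD6 and SMAD9 were the 4 that stood above FIT in IT too.

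**Figure D3:**
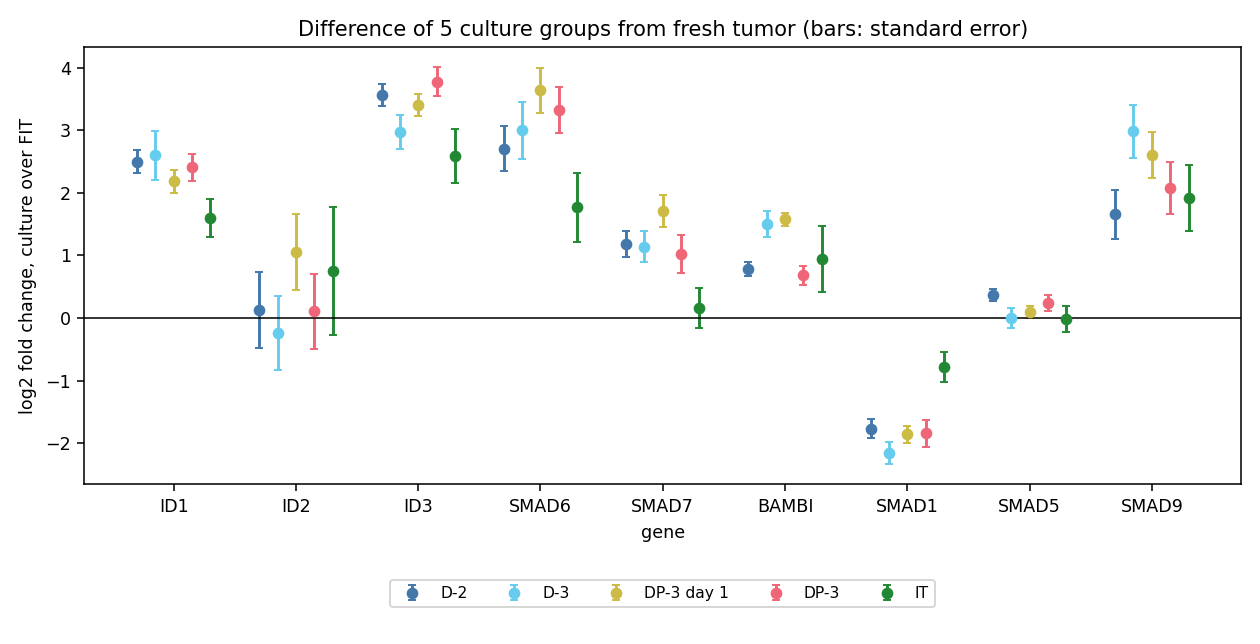
Log2 fold change of each culture group over FIT for 9 genes, from edgeR on 3 libraries a group, with bars of 1 standard error. ID1, ID3, SMAD6 and SMAD9 lie above 0 in all 5 cultures, SMAD1 lies below 0 in all 5, and SMAD5 stays close to 0.

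Differences between cultures were tested. The genes were chosen by their differences from FIT, so the sizes between cultures are not set against those over FIT. Of 90 combinations of 9 genes and 10 pairs of cultures, 77 were under 2-fold, 18 had an adjusted p below 0.05 and 3 were also at least 2-fold, which is what is named a call here (edgeR's quasi-likelihood test, Benjamini-Hochberg adjustment over all genes tested). The calls were for SMAD9, ID2 and SMAD7, each in another pair.

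SMAD9 was higher in D-3 than in D-2, by 1.29 ± 0.261 on the log2 scale (adjusted p = 0.01), the only call of the 9 genes where 18.5% of all genes were called. The values without each library in turn were 1.15 to 1.53, with adjusted p from 0.0022 to 0.0381. BAMBI was higher in D-3 by 0.68 (adjusted p = 0.0255), ID3 lower (-0.62, adjusted p = 0.0499) and SMAD1 lower (-0.42, adjusted p = 0.0484), under 2-fold, in a pair where 35.5% of all genes passed at any fold. These 3 were not stable. Leaving out single libraries in turn took SMAD1 out of significance whichever library was left out (adjusted p = 0.059 to 0.162), ID3 with all but D-3 replicate 1 (up to 0.116), and BAMBI with any D-2 library or D-3 replicate 3 (up to 0.0803).

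ID2 was higher in DP-3 day 1 than in D-3, by 1.3 ± 0.21 (adjusted p = 0.0204), where 2.97% of all genes were called. Leaving out D-3 replicate 3 gave 1.3 with adjusted p = 0.065, and leaving out DP-3 day 1 replicate 1, 2 or 3 gave 1.37, 1.18 and 1.38 with adjusted p = 0.0789, 0.087 and 0.0776, so the size held but the call did not. SMAD7 was lower in IT than in D-2 (-1.04, adjusted p = 0.0281), where 12.7% of all genes were called. Without D-2 replicate 1, 2 or 3 or IT replicate 1 or 2 its change was -1.05, -1.03, -1.03, -0.82 and -0.91 with adjusted p of 0.0847, 0.0853, 0.0792, 0.0675 and 0.0747, and without IT replicate 3 it was -1.32 (adjusted p = 0.00403). In the same pair ID1 (-0.92, adjusted p = 0.043) and SMAD1 (0.98, adjusted p = 0.0256) passed at under 2-fold, as did 24.3% of all genes at any fold. With the other libraries left out in turn these 2 passed only without IT replicate 3, and their highest adjusted p values were 0.119 and 0.0852.

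DP-3 day 1 against D-2 had no call, where 17.2% of all genes were called, but 7 of the 9 genes had an adjusted p below 0.05 and 8 an unadjusted p below 0.05 by edgeR, where 45.7% and 53.2% of all genes did. DESeq2 also called 0 and limma on log2(FPKM + 0.1) called 4, with no share of all genes taken for either tool. SMAD9 (0.90), SMAD6 (0.89), ID2 (0.88) and BAMBI (0.75) were higher in DP-3 day 1 and ID1 (-0.36), SMAD5 (-0.32) and ID3 (-0.21) lower. In 1 fit of all 18 libraries, which share 1 estimate of the spread, none of these 7 passed (adjusted p of 0.0857 to 0.674). The size of the last 3 depended on the scale, and the sign of ID3 turned. With median-of-ratios scaling of the counts ID1 stayed at -0.35, SMAD5 at -0.31 and ID3 at -0.20, with adjusted p of 0.00349, 0.00309 and 0.00577 by edgeR. FPKM refers each value to the whole library and the TMM scaling of edgeR to the typical gene, and on log2(FPKM + 0.1) the median of all genes was 0.29 higher in this pair. There, with limma in place of edgeR, ID1 was at -0.05, SMAD5 at -0.01 and ID3 at 0.10, the opposite sign, while the 4 higher genes were at 1.05 to 1.17. In FPKM 7 of the 9 genes had every DP-3 day 1 library above every D-2 library, against 44.5% of all genes. Among the other pairs this shift of the median reached 0.22 (D-3 against D-2) and -0.26 (DP-3 against DP-3 day 1).

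Printed tissue could be followed over time. Against day 1, DP-3 on day 14 had lower ID2 (-0.90, adjusted p = 0.0152) and BAMBI (-0.86, adjusted p = 0.00235), both under 2-fold, in a pair where 22.1% of all genes passed at any fold, so it had 0 calls by edgeR where 7.56% of all genes were called. The number with an unadjusted p below 0.05 was 4 of 9 (35.8% of all genes), and limma on log2(FPKM + 0.1) called 2. No share of all genes was taken for limma. Without 1 library in turn, BAMBI kept an adjusted p of at most 0.0176, and ID2 reached 0.0588 without DP-3 day 1 replicate 2 (-0.78). In 1 fit of all 18 libraries neither passed, with adjusted p of 0.152 for BAMBI and 0.449 for ID2 by edgeR. SMAD6, SMAD7 and SMAD9 had values of -0.29, -0.64 and -0.48, and ID1 and ID3 of 0.25 and 0.40, which did not pass. In FPKM 5 of 9 genes had every day 14 library below every day 1 library, against 35.2% of all genes.

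DP-3 against D-2, both on day 14, had 0 calls by edgeR, DESeq2 and limma, with 1.04% of all genes called and 1 of 9 at an unadjusted p below 0.05 (22.7% of all genes). DP-3 against D-3 also had 0 calls by all 3 tools, with 9.12% of all genes called and 3 of 9 at an unadjusted p below 0.05 (32.4% of all genes). BAMBI was lower in DP-3 there at under 2-fold (-0.79, adjusted p = 0.0353, up to 0.0989 with a library other than D-3 replicate 2 left out, in a pair where 14.7% of all genes passed at any fold), and SMAD9 (-0.86 ± 0.28) became a call without D-3 replicate 2.

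**Figure D4:**
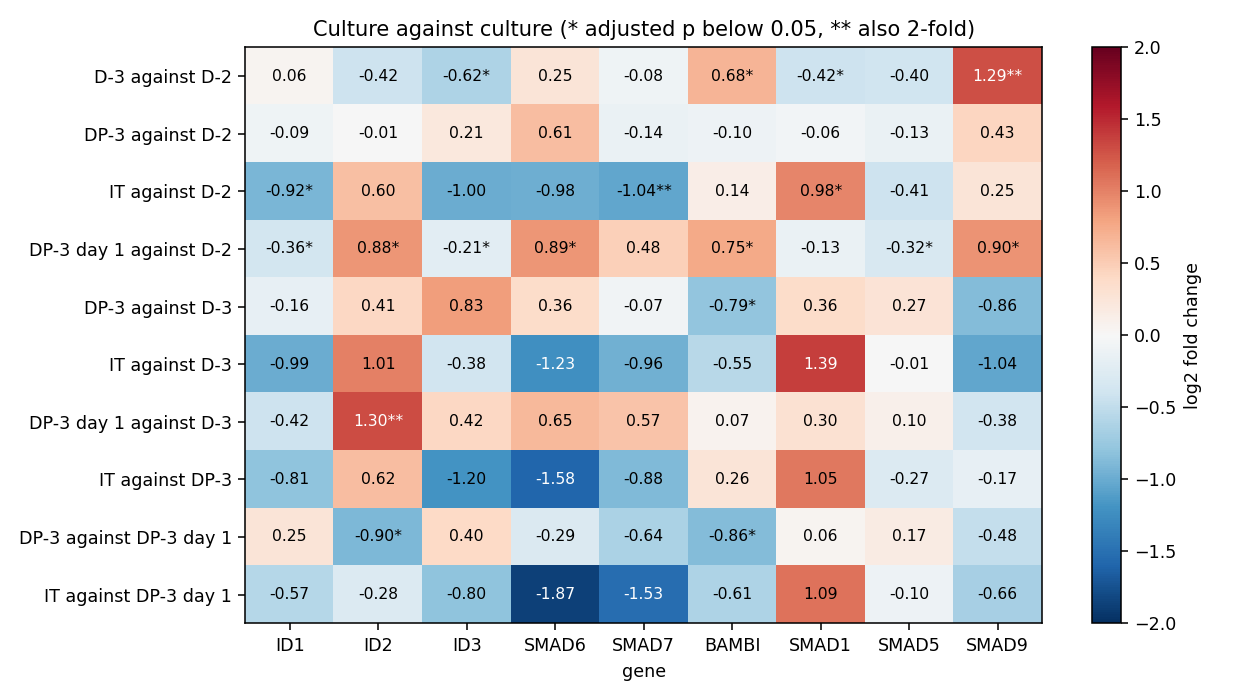
Log2 fold change of the first group over the second for 9 genes (columns) in the 10 pairs of cultures (rows), from edgeR on 3 libraries a group, by colour and number. One asterisk marks an adjusted p below 0.05 and a pair of asterisks also a 2-fold change; the 3 calls are SMAD9 in D-3 against D-2, SMAD7 in IT against D-2 and ID2 in DP-3 day 1 against D-3.

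IT was the group with the widest spread. Of single libraries left out, only IT replicate 3 raised the counts of calls in its comparisons with other cultures. The coefficient of variation over the 9 genes had a median of 49.2% in IT, 25.6% in D-3, 21.5% in FIT, 17.8% in DP-3, 5.11% in D-2 and 3.39% in DP-3 day 1. IT replicate 3 was the highest IT library for 8 of the 9 genes and the lowest for SMAD1. Its osteoblast markers summed to 6.93 FPKM against 24.7 and 25.5 in the other 2. The part of that difference in these results was not tested.

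With all 3 IT libraries edgeR gave 0 calls against D-3, DP-3 and DP-3 day 1, where 0.0461%, 1.5% and 1.15% of all genes were called. At an unadjusted p below 0.05 by edgeR there were 5, 5 and 3 of the 9 genes (8.9%, 24.8% and 18.2% of all genes). DESeq2 called 1, 3 and 3, but its share over all genes was not taken, so nothing is read from those counts. Without IT replicate 3 the calls against D-2 were 5, namely ID1 (-1.24), ID3 (-1.47), SMAD6 (-1.58), SMAD7 (-1.32) and SMAD1 (1.22), with 10.8% of all genes called. Against D-3 the call was SMAD1 (1.60, 0.245% of all genes called). Against DP-3 the calls were ID1 (-1.16) and SMAD6 (-2.20), with 1.58% of all genes called. Against DP-3 day 1 they were SMAD6 (-2.52), ID2 (-2.16), SMAD7 (-1.86), BAMBI (-1.62), SMAD9 (-1.12) and SMAD1 (1.3), with 3.54% of all genes called. In FPKM, with all libraries, 5 of the 9 genes had every IT library below every DP-3 day 1 library, against 20.1% of all genes.

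**Figure D5:**
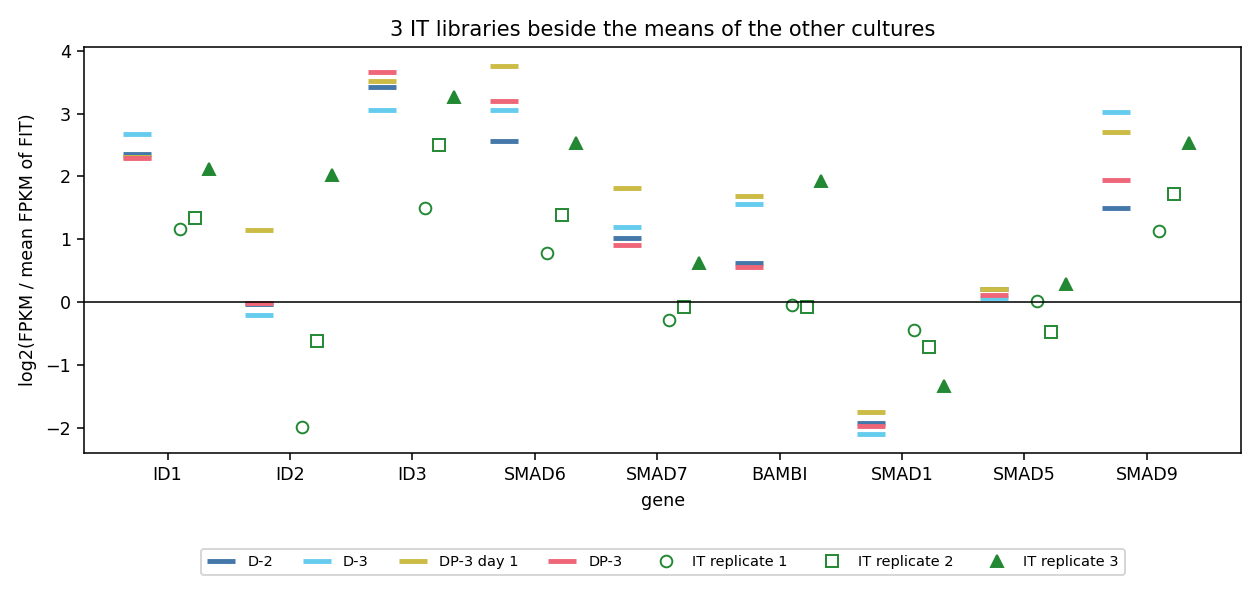
Log2 of FPKM over the mean FPKM of FIT for 9 genes, with the IT libraries as single points (open circle and square for replicates 1 and 2, filled triangle for replicate 3) and bars at the means of the other 4 cultures (n = 3 each). Replicate 3 is the highest IT point for 8 genes and the lowest for SMAD1, near the bars of the other cultures for most genes.

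A single test for any difference among the 5 cultures, with 15 libraries, passed for 5 of the 9 genes, where 35% of all genes passed. They were SMAD1 (adjusted p = 0.00124), SMAD7 (0.00987), SMAD6 (0.0138), SMAD9 (0.0264) and ID3 (0.0499). ID1 (0.109), SMAD5 (0.15), BAMBI (0.239) and ID2 (0.414) did not pass. Without IT replicate 3 all 9 passed, with adjusted p of at most 0.0312, where 38.7% of all genes passed. Without D-2 replicate 1, D-2 replicate 2 or D-3 replicate 3 only SMAD1, SMAD6 and SMAD7 passed, and ID3 lay between 0.00378 and 0.102 over all libraries left out.

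The order of group means in FPKM shows which neighbours overlapped on that scale. For ID1 it was D-3, D-2, DP-3 day 1, DP-3, IT and FIT, and only IT and FIT did not overlap. For SMAD6 it was DP-3 day 1, DP-3, D-3, D-2, IT and FIT, with gaps at the top and at the bottom. For SMAD1 it was FIT, IT, DP-3 day 1, D-2, DP-3 and D-3, with no overlap at the first 3 steps. The gap between DP-3 day 1 and D-2 was seen in FPKM only. By edgeR SMAD1 stood at -0.13 in that pair (adjusted p = 0.294). For ID2, SMAD5 and SMAD7 all neighbours overlapped.

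Of the other genes of the pathway, 75 were listed by role in 7 lists. The ligands and antagonists, which start and hold back the signal, differed between cultures. BMP2, a ligand that drives bone formation, had 0.645 ± 0.149 FPKM (SD, n = 3) in D-2 and 1.71 ± 0.239 in DP-3, and it rose in DP-3 against D-2 (1.38, adjusted p = 0.0386) and against DP-3 day 1 (1.08, adjusted p = 0.0152). Its relative BMP4 rose from day 1 to day 14 in printed tissue too (1.03, adjusted p = 0.0238). NOG, the secreted antagonist noggin, rose in D-3 against D-2 from 9.04 ± 0.19 to 27.0 ± 7.0 FPKM (1.33, adjusted p = 0.00343 by edgeR). In IT it rose to 42.4 ± 27.3 (2.05, adjusted p = 0.0176), with 73.9, 27.1 and 26.1 FPKM in replicates 1, 2 and 3. Without IT replicate 3 the change was 2.34 (adjusted p = 0.011), a fit that keeps the high replicate 1. FST, the activin antagonist follistatin, was called lower than D-2 for each of the other cultures, at -1.46 for DP-3 and -1.72 for DP-3 day 1. Its mean was 39.2 ± 4.46 FPKM for D-2. The others had 15.7 ± 3.11 (D-3), 14.5 ± 2.74 (DP-3), 14.7 ± 0.689 (DP-3 day 1) and 20.1 ± 6.73 (IT). Without IT replicate 3 the change for IT was -1.22 (adjusted p = 0.0306 by edgeR). ACVRL1, a type I receptor best known in endothelium, rose against D-2 in D-3 (2.46), IT (2.62) and DP-3 day 1 (2.16). Its mean went from 0.185 ± 0.0251 FPKM to 1.22 ± 0.0959, 1.29 ± 0.183 and 1.03 ± 0.0829. For IT the change was 2.71 without IT replicate 3 (adjusted p = 0.00403 by edgeR).

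The genes known as targets of TGF-beta, which signals through other SMADs, made up another list. All 9 tested of the 12 listed differed among the 5 cultures, where 35% of all genes did. So did 7 of the 8 tested antagonists, 4 of 5 ligands, 6 of 9 receptors, 5 of 10 SMAD partners and regulators, 5 of 10 other BMP targets and 3 of 6 partners of ID proteins. In D-3 against D-2 CCN2 (-3.03) and PMEPA1 (-1.98) fell and COL7A1 (2.00) rose. CCN2, a matrix protein gene, rose in DP-3 against DP-3 day 1 (2.18) from 38.1 ± 0.265 to 143 ± 13.8 FPKM. Of the 13 other listed BMP targets, 10 were tested in IT against D-2 and 3 were called, where 12.7% of all genes were called. They were ATOH8, DLX3 and HEY2, of which ATOH8 and HEY2 were also called without IT replicate 3 (10.8% of all genes called). The 6 tested partners of ID proteins, such as TCF3 and TCF4, had 0 calls in each pair of cultures by edgeR, DESeq2 and limma. From 1 to 4 of them had an unadjusted p below 0.05 by edgeR. The number was 3 in DP-3 against D-3 (32.4% of all genes) and IT against DP-3 (24.8%), and 2 in DP-3 day 1 against D-2 (53.2%). It was 1 in DP-3 against D-2 (22.7%), DP-3 against DP-3 day 1 (35.8%), IT against D-3 (8.9%) and IT against DP-3 day 1 (18.2%). For the other pairs this share was not taken, and nothing is read from these counts.

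Over all 7 lists the calls against D-2 were 14 of 54 tested in D-3 (3 higher, 11 lower), 5 of 55 in DP-3 (2 higher, 3 lower), 14 of 57 in IT (5 higher, 9 lower) and 8 of 55 in DP-3 day 1 (4 higher, 4 lower), where 18.5%, 1.04%, 12.7% and 17.2% of all genes were called. The list medians of the log2 fold change were -0.361, -0.0193, -0.206 and -0.0532, beside 0.107, 0.0265, 0.0989 and 0.095 over all genes. DP-3 had 7 of 55 calls against D-3 and 7 of 55 against DP-3 day 1, and DP-3 day 1 had 2 of 55 against D-3, where 9.12%, 7.56% and 2.97% of all genes were called. IT had 5 of 57 against DP-3 (1.5% of all genes) and 2 of 57 against DP-3 day 1 (1.15%). Against D-3 it had 0 of 57 by edgeR and 4 by DESeq2, with 12 at an unadjusted p below 0.05 (0.0461% and 8.9% of all genes by edgeR). Without IT replicate 3 the calls of IT by edgeR were 14 of 54 against D-2, 6 of 55 against DP-3 and 7 of 55 against DP-3 day 1. Against D-3 they were 0 of 55, with 14 at an unadjusted p below 0.05. Of all genes 10.8%, 1.58%, 3.54% and 0.245% were called in these pairs, in that order. Since the lists too were chosen with earlier results known, nothing is read from the counts against FIT. They were 16 of 55 in D-2, 8 of 56 in D-3, 6 of 55 in DP-3, 5 of 56 in DP-3 day 1 and 0 of 57 in IT by edgeR (11 at an unadjusted p below 0.05, and 8 by DESeq2), where 14.6%, 6.45%, 4.82%, 5.03% and 0% of all genes were called. BMP2 had 4.36 ± 0.839 FPKM in FIT, against 0.645 ± 0.149 in D-2 and 1.25 ± 0.299 in D-3. BMP4 had 7.05 ± 4.83 in FIT, against 1.84 ± 0.594 in D-2 and 0.858 ± 0.305 in D-3. BMP6 had 3.73 ± 2.2 in FIT, 5.14 ± 0.161 in D-2 and 8.6 ± 3.25 in D-3. Its FIT libraries ran from 1.93 to 6.19 FPKM, across the D-2 range of 4.97 to 5.29. In DP-3 day 1, DP-3 and IT it had 5.03 ± 0.392, 4.26 ± 0.895 and 15.3 ± 14.6. Thus FIT, with the lowest ID1 and ID3, had the lowest mean of BMP6. IT, with the lowest ID1 and ID3 means of the cultures, had the highest. A link of these ligands to the ID genes was not tested.

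Over the 18 libraries the level of ID1, as log2(FPKM + 0.1), was most like that of ID3 (Pearson r = 0.947) and then UXS1 (0.933). The gene most like ID3 after ID1 was STEAP1 (0.937). For SMAD6 it was LRP3 (0.922), for SMAD7 SLC2A13 (0.911), for SMAD9 PTPRS (0.960), for BAMBI PDE4DIP (0.932), for SMAD1 RGL1 (0.948), for ID2 SNAI1 (0.853) and for SMAD5 AGFG1 (0.800). Between members, ID1 and SMAD1 had r = -0.93 and SMAD9 and BAMBI 0.85, while ID2 had at most 0.65 with any other. These values describe 18 libraries that share groups, with FIT apart from the rest for several genes, and carry no test.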

How the data were processed

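Poly(A) RNA of 18 libraries, 3 in each of 6 groups named by the labels, was sequenced in pairs of reads. The authors filtered, aligned and assembled reads with cutadapt 1.9, HISAT2 2.0.4 and StringTie 1.3.4d (versions per the submitters' processing notes, which also list DESeq2 and edgeR). The genome build is not given in the sources used here. Of 50119 genes, 48223 were matched to GENCODE release 29, and 99.81% of these overlapped in position. The authors deposited FPKM from StringTie and whole-number estimated counts. How the estimated counts were made is not given, and 35% of values up to 40 were multiples of 4 (25% by chance), so they may not be plain read counts. 0 columns of values per sample were left unused.

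Genes with FPKM of at least 0.1 in at least 3 libraries were tested with edgeR 4.0.16 (TMM, estimateDisp, glmQLFit, glmQLFTest) in R 4.3.3 on the 6 libraries of each pair, or on 15 for the test among cultures. A call needed an adjusted p below 0.05 over all genes tested and a 2-fold change. Shares of all genes are from edgeR and were not taken for DESeq2 or limma. The code was tested on simulated data. Alternatives were limma 3.58.1 on log2(FPKM + 0.1) and log2(FPKM + 1), DESeq2 1.42.0, median-of-ratios scaling, an FPKM minimum of 1, no filter, 1 fit of all 18 libraries, a replicate block, and leaving out single libraries. Tables were made with Python 3.11.15, pandas 2.3.3 and numpy 2.4.6.

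The members and lists were chosen with earlier results of these data known. All 10 members are named. Of the lists, at most 3 called genes a direction and comparison are named, by the largest fold change, where 1 of the groups reached a mean of 1 FPKM. A few beyond this rule are named after their values were seen (ATOH8, DLX3 and HEY2 in IT, FST in D-3 and IT, and BMP6). For each member the most similar genes by Pearson r over 18 libraries are named, among genes of mean FPKM of at least 1. No amino acid or protein sequence was used here. Values of 2 listed genes withheld for evaluation are not reported here.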

Additional observations from a re-analysis of the deposited data

How the results depend on the processing

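No direction of a call among the 9 genes turned under any alternative. ID3 in DP-3 day 1 against D-2, under 2-fold, turned from -0.21 to 0.10 with limma on log2(FPKM + 0.1). Counts of member calls moved as follows. D-3 against D-2 went from 1 to 0 with limma on log2(FPKM + 1). IT against D-2 went from 1 to 0 with limma on log2(FPKM + 1) and to 2 in 1 fit of all 18 libraries, and ranged from 0 to 5 with a library left out. It stayed at 1 with limma on log2(FPKM + 0.1) and at an FPKM of at least 1, but there SMAD1 was called and SMAD7 was not (-0.90 with adjusted p = 0.0517, and -0.89). DP-3 day 1 against D-2 went from 0 to 4 and 1 with limma on log2(FPKM + 0.1) and log2(FPKM + 1) and to 3 at an FPKM of at least 1. DP-3 against DP-3 day 1 went from 0 to 2, 1 and 1 under the same settings. DP-3 day 1 against D-3 went from 1 to 0 in 1 fit of all 18 libraries and with the replicate block, and ranged from 0 to 1 with a library left out. IT against D-3 went from 0 to 1 with DESeq2 and in 1 fit of all 18 libraries, with a range of 0 to 1 with a library left out, as in DP-3 against D-3 (1 without D-3 replicate 2). IT against DP-3 went from 0 to 3 with DESeq2 and in 1 fit of all 18 libraries, with a range of 0 to 2 with a library left out. IT against DP-3 day 1 went from 0 to 2 with limma on log2(FPKM + 1), at an FPKM of at least 1 and without a filter, to 3 with DESeq2 and in 1 fit of all 18 libraries, and ranged from 0 to 6. The test among cultures ranged from 3 to 9 with a library left out. The cause was not tested. Calls in the 7 pathway lists, summed over pairs of cultures, went from 64 to 35 with limma on log2(FPKM + 1), and summed over comparisons with FIT from 35 to 23 with it, 65 with DESeq2 and 60 in 1 fit of all 18 libraries.

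The replicate numbers were not taken to pair the libraries. In 0 of 15 pairs of groups were all correlations of same-numbered deviations over 0.1, and they ran from -0.186 to 0.235. Between IT and FIT, which can share tumors, they were 0.018 to 0.062. With deviations within groups of 3 libraries, this cutoff cannot exclude pairing. Among counts of member calls the replicate block moved that of DP-3 day 1 against D-3, from 1 to 0. It took ID2 in DP-3 against DP-3 day 1 to an adjusted p of 0.0551 by edgeR, and calls in the pathway lists from 64 to 49 between cultures and from 35 to 28 against FIT. Depth limits ID4, which was near 0 throughout, and FIT replicate 3, the shallowest library.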
